A study of Homo sapiens with 2 samples.

Results

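HOX genes encode homeodomain transcription factors that set position along the body axis of the embryo. In humans they lie in 4 clusters, HOXA to HOXD, and genes of the same number in different clusters are paralogs that arose by duplication of an ancestral cluster. Genes with low paralog numbers lie at the end of a cluster that is used first and furthest toward the head, and genes with high numbers at the other end. The proteins bind DNA together with PBX and MEIS partners, Polycomb and MLL complexes keep cluster genes silent or active, and retinoic acid is a known inducer of genes at the low-number end. HOX genes are known to take part in branching of the developing lung.

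The HOX genes were taken as all genes whose symbol is HOX, a cluster letter and a number, with a probe set that lists this symbol alone. Of 39 human HOX genes, 28 had such a probe set (1 HOXA, 10 HOXB, 9 HOXC and 8 HOXD genes), out of 19775 genes in all. They were read by 44 probe sets, and where a gene had several, the one brightest on average over both arrays (mean of log2 signals) stands for it. The other 10 HOXA genes and HOXD3 were not analysed here, so cluster A is represented by HOXA2 alone.

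HCC4006 is a human NSCLC cell line with a deletion in exon 19 of EGFR that is sensitive to the EGFR inhibitor erlotinib. HCC4006ER cells carry the same deletion and are an erlotinib-resistant population, labelled as having an EMT phenotype, that was selected from HCC4006 by rising concentrations of erlotinib. Both were cultured for 48 hours without further treatment, and for each cell line the RNA of 3 preparations was mixed and read on 1 HG-U133 array (Affymetrix). The values are MAS5 signals, a linear measure of probe set brightness without unit. There is no replicate array, so no difference could be set against a spread between samples and no test was possible.

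A signal was called above background when it exceeded the 95th percentile of 127 probe sets for olfactory and bitter taste receptors on the same array, which was 96.2 on the HCC4006 array and 91.6 on the HCC4006ER array. Where only 1 of the readings was below its level, the level took its place and the fold is a bound, written "at least". No fold is given when both sides were below it. A bound under 1.5-fold was counted as not past 1.5-fold, although the fold itself may be larger. The log2 fold is always HCC4006ER over HCC4006. Probe sets of the same gene gave log2 folds that differed with an SD of 0.27 (pooled over 5264 genes), a spread that holds nothing of the variation between arrays or cultures. All 10 epithelial markers were above background on both arrays, of 6 lung epithelial markers only SFTPC was, and NKX2-1 was not on either. Of fibroblast, leukocyte and endothelial markers, 2 of 10, 1 of 6 and 1 of 6 were above background on at least 1 array. Of EMT genes, vimentin (VIM) was 1.53-fold higher on the HCC4006ER array (5926 and 9057), whereas E-cadherin (CDH1) read 10469 and 11041, and the repressor ZEB1 was below background at 42.5 and 53.1. VIM thus differed in the direction of the EMT label, and CDH1 and ZEB1 did not. HCC4006ER therefore stands throughout for the array labelled so, and every direction rests on that label. In a bulk sample, fewer cells that express a gene and less RNA per cell cannot be told apart.

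HOX transcripts were widely present in both cell lines. On the HCC4006 array, 19 of 28 HOX genes were above background, and on the HCC4006ER array 17 were. Of them, 16 were above background on both, 3 on HCC4006 alone (HOXB8, HOXD1 and HOXD4), 1 on HCC4006ER alone (HOXD9) and 8 on neither. The share above background on at least 1 array was 71.4% for the HOX genes, 60.2% for all genes and 39.7% for a list of 78 other homeobox genes. Most HOX genes differed little between the arrays, as did most genes above background. Of the 20 above background, none was higher past 1.5-fold on the HCC4006ER array and 2 were lower, HOXD8 and HOXD1. The same rule called 7.99% of all 11896 genes above background higher and 11.2% lower, 19.1% in all. For HOXB8, HOXD4 and HOXD9 the fold is a bound under 1.5-fold, which does not decide whether they pass. The median log2 fold by the measured signals was 0.04 over the 20 HOX genes and -0.04 over the 11896 genes. The size of the log2 fold, regardless of direction, had a median of 0.26 over the 16 HOX genes read on both arrays and of 0.26 over all 10849 such genes. By the measured ratio with dim signals left as they are, 8 of all 28 HOX genes were past 1.5-fold lower and 2 higher, where the same rule called 23% of 19775 genes lower and 13% higher, 36% in all. Of these 10 HOX genes, 6 were below background on both arrays.

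**Figure D1:**
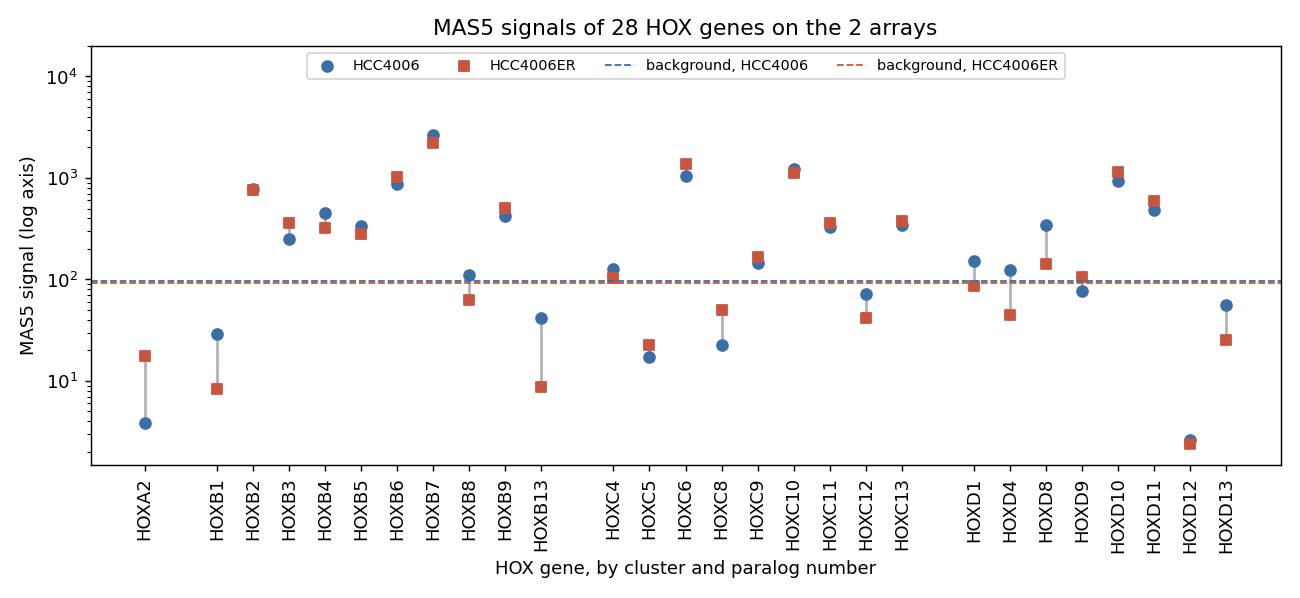
MAS5 signal on a log axis for 28 HOX genes by cluster and paralog number, with circles for the HCC4006 array, squares for the HCC4006ER array and dashed lines for the background levels of 96.2 and 91.6. The pairs of HOXB2 to HOXB7 lie close together above the lines, while HOXD8, HOXD4 and HOXD1 are lower on the HCC4006ER array. Heights of different genes are not comparable, since probe sets differ in brightness.

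Both genes past the threshold lie in cluster D, and the genes around them are shown first. HOXD8 read 346 in HCC4006 and 143 in HCC4006ER, 2.42-fold lower, while still above background on both. Only 1.86% of the 11896 genes were as low or lower. HOXD8 is a central HOX gene with paralogs HOXB8 and HOXC8, and it had 1 probe set, so no second reading of it exists. HOXD1, at the low-number end of the cluster, read 152 and 85.8, which is at least 1.66-fold lower with the HCC4006ER side under the background level. HOXD1 did not pass under 5 of 10 alternative settings. HOXD8 passed under all 10, but most of them left its fold unchanged, because its 1 probe set was above background on both arrays. The settings therefore do not compare the genes on equal terms. The second probe set of HOXD1 was dim on both arrays, at 3.53 and 3.46, and gives no fold.

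HOXD4 lies between them and had a pair of probe sets that both fell under the background level on the HCC4006ER array. The representative probe set read 125 and 44.6, at least 1.36-fold lower, which does not pass 1.5-fold. The other probe set read 250 and 21.1, at least 2.73-fold lower. HOXD4 was therefore above background only on the HCC4006 array, and whether it is counted past 1.5-fold depends on the probe set.

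On the other side of HOXD8 in the cluster, the 3 genes above background read higher on the HCC4006ER array and the 2 dim genes read lower. In their representative probe sets, HOXD10 and HOXD11 lay within 1.5-fold, and HOXD9 has only a bound. HOXD10 read 936 and 1137 (log2 fold 0.28), about the SD between probe sets. Its other probe sets gave log2 folds of 0.48 (97.2 and 136) and 0.77 (120 and 206), so all 3 were higher and the last was past 1.5-fold (1.71-fold). HOXD11 read 479 and 588, a log2 fold of 0.30, in its only probe set. HOXD9, which neighbours HOXD8, read 76.3 and 105 and was at least 1.09-fold higher. HOXD12 and HOXD13, the last genes of the cluster, were below background in all their probe sets. HOXD12 read 2.64 and 2.40, and HOXD13 read 56.1 and 25.2.

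Noncoding RNAs of the same stretch of cluster D also read lower. Of 11 HOX cluster noncoding RNAs measured, 3 were above background on at least 1 array: HAGLROS, HOTTIP and HOTAIR. HAGLROS, a noncoding RNA gene that lies between HOXD3 and HOXD1, read 285 and 81.0 and was at least 3.12-fold lower on the HCC4006ER array. HAGLR, which is listed next to it, was below background in its representative probe set (72.4 and 38.5), but another of its 3 probe sets read 148 and 15.3, at least 1.62-fold lower. HOXD-AS2, between HOXD8 and HOXD4, was below background at 86.8 and 26.97. Lower readings of dim noncoding RNAs were not particular to cluster D. HOXB-AS3 (75.9 and 42.7), HOXA11-AS (58.2 and 29.0) and HOXC-AS3 (67.3 and 62.0) also read lower, while HOXB-AS1, HOXA-AS2 and HOXA-AS3 read higher. From HOXD8 to HOXD1, all 6 measured genes, coding and noncoding, had a lower reading on the HCC4006ER array, and so did all 10 of their probe sets. Of these probe sets, 6 were above background on the HCC4006 array, and only that of HOXD8 was so on the HCC4006ER array. The ends of this stretch were set after the values were seen, by the genes past 1.5-fold, so the count is a description. Over HOXD9 to HOXD13, 2 of 5 genes and 4 of 10 probe sets read lower, all of them dim, and the 5 probe sets above background on at least 1 array read higher. A lower reading was common among dim genes: of the 7879 genes below background on both arrays, 63.7% read lower on the HCC4006ER array. Over all genes, detection on 1 array alone was more frequent for HCC4006, with 636 above background on HCC4006 alone and 411 on HCC4006ER alone. The part of dim signals in the cluster D pattern was not tested. HOXD8, above background on both arrays, and HAGLROS, HOXD4 and HOXD1, above background on 1, are the members of the stretch that the fold rests on.

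**Figure D2:**
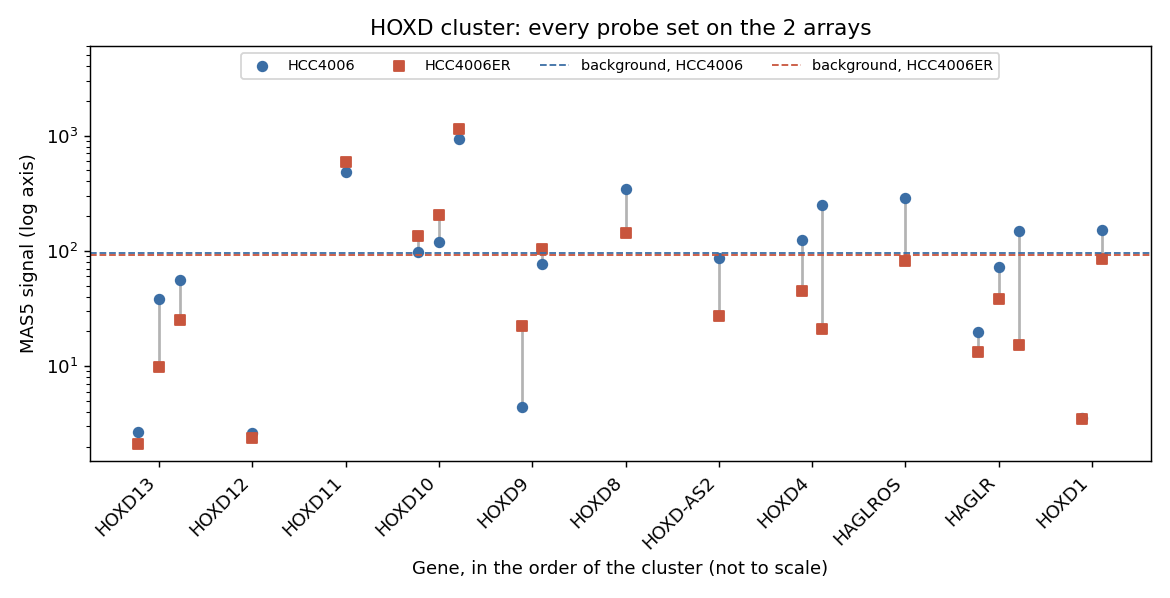
MAS5 signal on a log axis for every probe set of the measured genes of cluster D, in the order of the cluster and not to scale. Circles are the HCC4006 array, squares the HCC4006ER array, grey lines join the readings of a probe set and dashed lines are the background levels. From HOXD8 to HOXD1 all 10 squares lie under their circles or beside them, and the squares of HOXD10 and HOXD11 lie above theirs.

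The sequence before the RefSeq start of these 5 coding genes is given because neighbours in 1 cluster read in opposite directions. In their representative probe sets HOXD10 and HOXD11 read higher within 1.5-fold only, at log2 folds of 0.28 and 0.30. These folds were about the SD of 0.27 between probe sets. Windows from RefSeq (GRCh38.p14) were matched for 10 of the 28 members. Each line holds the 250 bases before the start, 5′ to 3′ on the plus strand of chromosome 2, with CG dinucleotides, the sites of DNA methylation, in capitals. No measurement of these arrays was made on the promoters.
HOXD11 (chr2:176107030-176107279): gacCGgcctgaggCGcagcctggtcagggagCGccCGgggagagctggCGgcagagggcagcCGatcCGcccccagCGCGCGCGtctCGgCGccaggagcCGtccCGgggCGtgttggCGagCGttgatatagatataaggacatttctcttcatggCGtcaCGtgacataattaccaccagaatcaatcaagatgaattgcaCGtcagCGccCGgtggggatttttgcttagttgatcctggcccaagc
HOXD10 (chr2:176116528-176116777): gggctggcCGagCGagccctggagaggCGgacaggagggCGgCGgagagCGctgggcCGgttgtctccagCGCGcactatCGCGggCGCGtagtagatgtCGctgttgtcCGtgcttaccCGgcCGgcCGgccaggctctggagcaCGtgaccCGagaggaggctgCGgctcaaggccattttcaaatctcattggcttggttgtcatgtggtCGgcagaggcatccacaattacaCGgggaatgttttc
HOXD8 (chr2:176129455-176129704): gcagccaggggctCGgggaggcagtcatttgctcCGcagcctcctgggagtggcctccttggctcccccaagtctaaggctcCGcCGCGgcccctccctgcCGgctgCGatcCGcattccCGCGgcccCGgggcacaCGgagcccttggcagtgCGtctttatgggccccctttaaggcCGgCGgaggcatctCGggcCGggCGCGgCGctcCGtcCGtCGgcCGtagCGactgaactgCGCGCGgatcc
HOXD4 (chr2:176151300-176151549): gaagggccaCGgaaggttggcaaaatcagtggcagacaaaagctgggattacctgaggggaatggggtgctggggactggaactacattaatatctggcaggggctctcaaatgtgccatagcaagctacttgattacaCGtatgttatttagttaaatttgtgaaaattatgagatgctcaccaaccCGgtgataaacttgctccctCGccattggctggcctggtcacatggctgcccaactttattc
HOXD1 (chr2:176188418-176188667): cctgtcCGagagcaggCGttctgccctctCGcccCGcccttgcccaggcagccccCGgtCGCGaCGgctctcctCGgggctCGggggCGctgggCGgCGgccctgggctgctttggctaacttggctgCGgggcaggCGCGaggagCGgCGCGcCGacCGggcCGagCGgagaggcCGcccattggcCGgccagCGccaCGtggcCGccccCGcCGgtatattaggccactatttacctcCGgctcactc
HOXD8 and HOXD1, the genes past 1.5-fold, had 28 and 31 CG dinucleotides, and HOXD10 and HOXD11, which read slightly higher, had 23 each. HOXD4 had 4. The median over 34943 RefSeq promoter windows of the same length was 11. Whether the number of CG dinucleotides goes with the direction of a reading was not tested. AGGTCA, the half-site bound by retinoic acid receptors and other nuclear receptors, was searched on both strands and was in none of the 5 windows. It is in 12.1% of all windows, so 5 windows are too few to read its absence as a difference. TGATNNAT, a site of HOX and PBX pairs, was in the HOXD11 window alone among the 5 and in 6.49% of all windows.

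Cluster B was present as an unbroken run. HOXB2 to HOXB9, 8 neighbouring genes, were above background on the HCC4006 array, and all but HOXB8 were so on the HCC4006ER array. HOXB1 and HOXB13, at the ends of the cluster, were below background on both in all probe sets. None of the 8 passed 1.5-fold, beside 19.1% of all genes above background. The fold of HOXB8 is a bound, at least 1.20-fold lower, which does not decide whether it passes. Of the 7 above background on both arrays, HOXB3 came nearest, with 249 and 362, a log2 fold of 0.54. HOXB3 passed 1.5-fold once the array medians were made equal. Its second probe set was dim on both, at 37.6 and 31.8.

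HOXB4, known for its role in blood stem cells, read 448 and 324, a log2 fold of -0.47. HOXB2 read 787 and 764, a log2 fold of -0.04. HOXB5, which takes part in lung branching, read 337 and 281, with log2 folds of -0.26 and -0.27 in its probe sets. These differences all lay within 1.5-fold.

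HOXB6 read 866 and 1017, a log2 fold of 0.23. HOXB7, a gene often studied in carcinomas, read 2642 and 2220, and its 3 probe sets, all above background, gave log2 folds of -0.39 to -0.17. HOXB9 read 420 and 504, a log2 fold of 0.26, while its other probe set read 252 and 251. The direction of HOXB9 therefore does not hold across its probe sets, whereas those of HOXB5 and HOXB7 agreed in sign. HOXB8 read 110 and 63.1 and was at least 1.20-fold lower.

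Cluster C was present on both arrays in 6 of 9 genes, and none of them passed 1.5-fold, beside 19.1% of all genes above background. HOXC6 read 1055 and 1378, with the largest log2 fold of the cluster, 0.39. HOXC10 read 1223 and 1131, a log2 fold of -0.11. HOXC11 and HOXC13 read 328 and 362, and 343 and 375, with log2 folds of 0.14 and 0.13. These 4 genes lay well above background on both arrays.

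HOXC9 read 144 and 165 and HOXC4 read 128 and 105, closer to background, with log2 folds of 0.19 and -0.29. HOXC5, HOXC8 and HOXC12 were below background on both. HOTAIR, a noncoding RNA of this cluster that is known to bind Polycomb proteins, read 66.8 and 102 and was at least 1.06-fold higher. Each HOXC gene had 1 probe set, so no agreement between probe sets could be given. In cluster A, HOXA2 was below background at 3.86 and 17.5, and HOTTIP, a noncoding RNA at the high-number end, read 296 and 230, a log2 fold of -0.36.

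**Figure D3:**
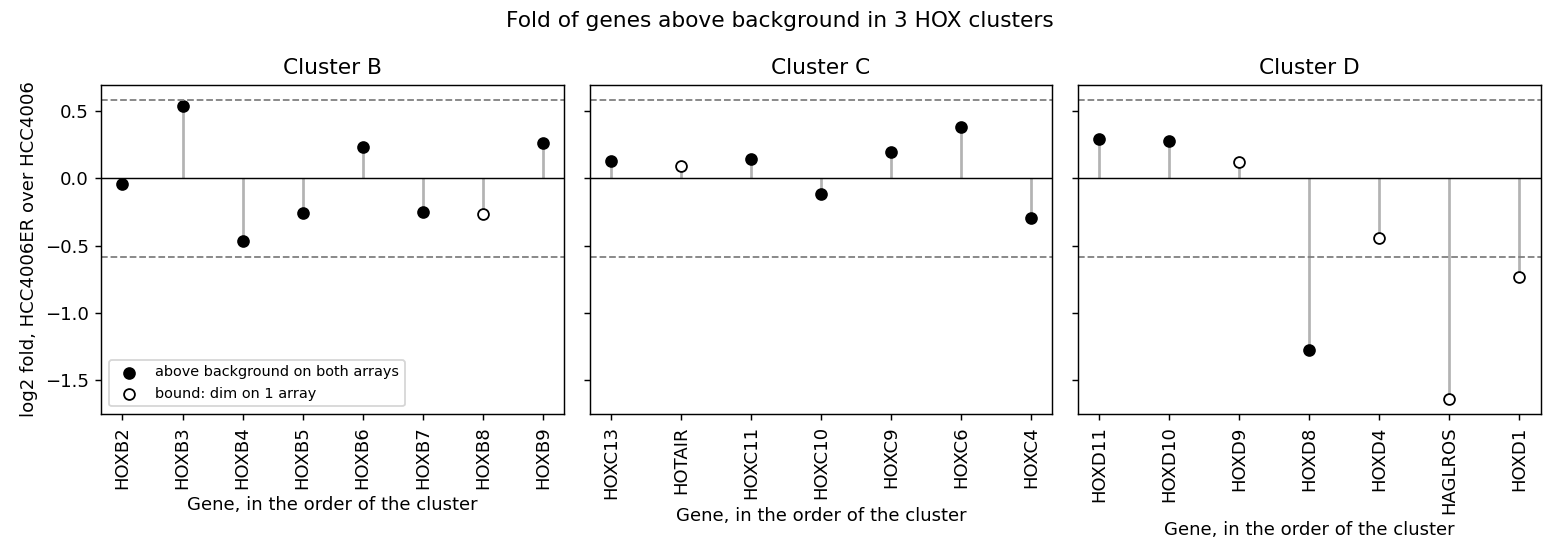
Log2 fold, HCC4006ER over HCC4006, for genes of clusters B, C and D above background on at least 1 array, in the order of each cluster. Filled points were above background on both arrays, open points are bounds with 1 side at the background level, and dashed lines mark 1.5-fold. The points past the lower line are HOXD8, HAGLROS and HOXD1.

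By paralog number, every group from 1 to 13 that could be read except 12 had a member above background on at least 1 array. In paralogs 1 to 3, 3 of 5 genes were above background, in paralogs 4 to 8 it was 9 of 11, and in paralogs 9 to 13 it was 8 of 12. All measured members were above background on at least 1 array in groups 4, 6, 9, 10 and 11, and in groups 3 and 7, each read by 1 gene. Past 1.5-fold, 1 of 3 genes of paralogs 1 to 3 was lower (HOXD1), 1 of 9 of paralogs 4 to 8 (HOXD8) and none of 8 of paralogs 9 to 13. Over all genes, 60.2% were above background on at least 1 array, and 11.2% of these were lower past 1.5-fold. The counts are too small to read a trend along the paralog numbers. The median measured log2 folds of the 3 ranges were -0.04, -0.29 and 0.23, beside -0.04 over all genes above background. In 5 of the 6 groups with several members above background, those members shared a direction. How often unrelated genes would do so was not tested, so the count is a description. In group 8 HOXD8 was 2.42-fold lower and HOXB8 at least 1.20-fold lower, and HOXC8 was below background on both arrays. In group 4 HOXB4, HOXC4 and HOXD4 were all lower, at log2 folds of -0.47, -0.29 and at most -0.44. Members of groups 6, 9 and 11 all read higher, though the direction of HOXB9 did not hold across its probe sets. Those above background on both arrays lay within 1.5-fold, and HOXD9 has only a bound. In group 10 HOXC10 and HOXD10 lay on opposite sides of 0, at -0.11 and 0.28. Of these genes, only HOXD8 passed 1.5-fold, and the folds of HOXB8, HOXD4 and HOXD9 are bounds under it.

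Genes just outside the clusters were read with their 3 nearest protein-coding genes on each side. Of 23 with a probe set, 21 were above background, none was higher past 1.5-fold and 1 was lower, SKAP1, an adaptor gene next to HOXB1, at least 1.58-fold (145 and 50.01). The share past 1.5-fold was 4.76%, beside 19.1% of all genes above background. Beside cluster D, LNPK read 1003 and 910 and MTX2 read 3060 and 2529, 1.10-fold and 1.21-fold lower, HNRNPA3 read 2553 and 2607, ATP5MC3 read 11406 and 10602, and NFE2L2 read 5519 and 4520. None of these 5 neighbours of cluster D passed 1.5-fold. The other 15 flanking genes above background, SNX10, SKAP2, CBX3, HIBADH and TAX1BP1 (cluster A), CBX1, SNX11, CALCOCO2 and ATP5MC1 (cluster B) and ATF7, ATP5MC2, CALCOCO1, SMUG1, CBX5 and HNRNPA1 (cluster C), lay within 1.35-fold.

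Genes of DNA-binding partners and of the complexes that act on HOX clusters lay mostly within 1.5-fold. Of all genes above background, 19.1% were past 1.5-fold. Of 9 TALE cofactors above background, none passed 1.5-fold: PKNOX2 read 146 and 100.0 (log2 fold -0.54), MEIS2 1364 and 1060 (-0.36), TGIF2 570 and 725 (0.35) and PBX3 1152 and 919 (-0.33). Of 10 MLL and H3K27 demethylase genes, none passed either. KMT2A, which encodes MLL, came nearest with 590 and 862 (log2 fold 0.55), followed by the demethylase KDM6B with 468 and 662 (0.50), WDR5 with 1491 and 1163 (-0.36) and RBBP5 with 312 and 400 (0.36). Of 17 Polycomb genes, all above background, 2 were higher past 1.5-fold (11.8%, beside 7.99% of all genes) and none was lower. CBX2, which reads H3K27 methylation, was 1.73-fold higher (156 and 270) and PCGF2, a subunit of PRC1, 1.62-fold higher (562 and 908). SUZ12 and EZH1, subunits of PRC2, were 1.39-fold and 1.28-fold higher and did not pass. The count of 2 became 0 with the mean over probe sets and with a 2-fold threshold, and 1 with other choices of probe set. The median log2 folds of the 3 lists were -0.22, 0.04 and 0.11.

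Several retinoic acid genes were lower on the HCC4006ER array. Of 11 above background, 5 were lower past 1.5-fold (45.5%, beside 11.2% of all genes), none was higher, and the median log2 fold was -0.61, beside -0.04 over all genes. STRA6, the retinol uptake receptor, was 1.99-fold lower (344 and 173), the nuclear receptor RARA 1.95-fold (596 and 305), RARG 1.64-fold (418 and 254) and RDH10, the enzyme that makes retinaldehyde, 1.57-fold (754 and 480). DHRS3, which turns retinaldehyde back to retinol, was 1.52-fold lower (860 and 565). All probe sets of these 5 genes that were above background on both arrays read lower, while 2 dim ones of RARA and 1 of RDH10 read higher. The other bright probe sets of RARA, RARG, STRA6 and RDH10 lay within 1.5-fold, at log2 folds of -0.53, -0.52, -0.44 and -0.35. The count of 5 fell to 2 once the array medians were made equal, and also with other choices of probe set. Of the HOX genes at the low-number end, where retinoic acid is known to act first, HOXB2 and HOXB3 lay within 1.5-fold. HOXD1 was lower by a bound, and HOXB1 and HOXA2 were below background on both arrays. A link between these genes and the retinoic acid genes was not tested.

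Among the other homeobox genes, 31 of 78 were above background, 6 were higher past 1.5-fold and 4 lower. Together these were 32.3% of the 31, beside 19.1% of all genes above background. SATB1, a chromatin organizer, was 3.02-fold lower, and MSX1, HHEX and IRX5 were 2.38-fold, 2.34-fold and 2.09-fold higher. The median size of the log2 fold over those above background on both arrays was 0.47, beside 0.26 for the HOX genes. Of 3 ParaHox and HOX-linked homeobox genes above background, MNX1 read 219 and 226, EN1 read 101 and 77.3 and GSX2 read 46.9 and 92.1. None of the 3 passed 1.5-fold, and GSX2 has no fold because its brighter reading lay under the HCC4006 background level.

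**Figure D4:**
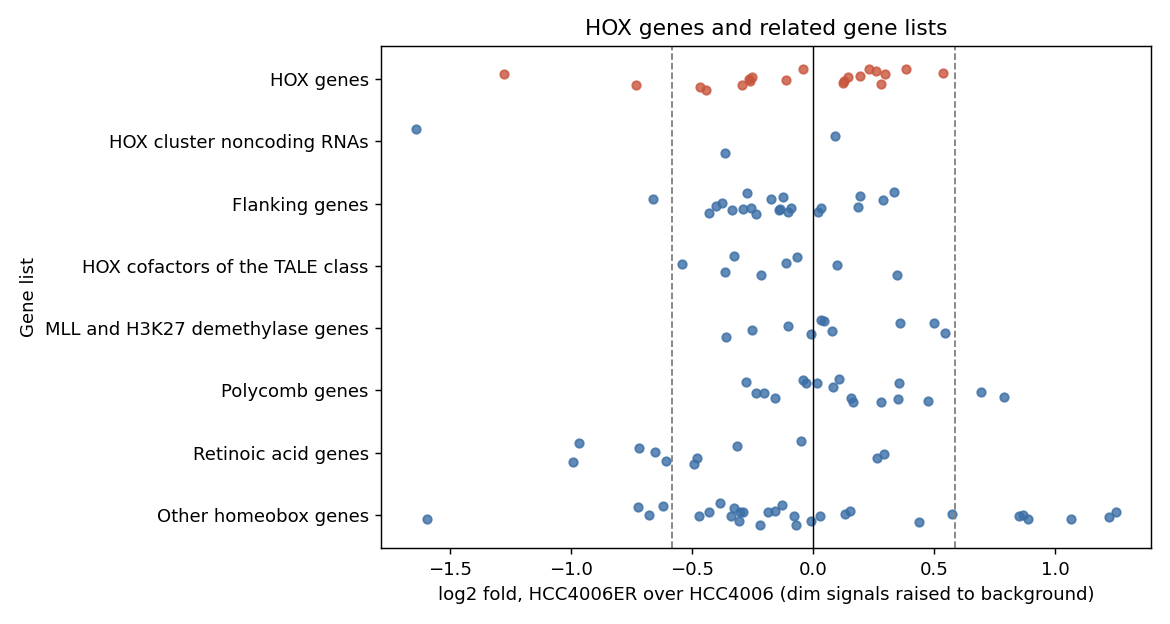
Log2 fold, HCC4006ER over HCC4006, with readings under background set at that level, for HOX genes and 7 related lists. Each point is 1 gene above background on at least 1 array, points are spread vertically for view only, and dashed lines mark 1.5-fold. HOX genes lie between the lines except HOXD8 and HOXD1, and 5 of 11 retinoic acid genes lie past the lower line.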

How the data were processed

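For either cell line, mixed total RNA was read on 1 HG-U133 array. The deposited intensities are 1 linear signal for each probe set, computed by the authors with MAS5 (GCOS 1.4 is also named in the submitters' processing notes), for 54675 probe sets and without detection calls. The mean signal was 500.1 on both arrays with the brightest and dimmest 2% of probe sets trimmed. Gene symbols came from the platform annotation, in which 41097 probe sets had 1 symbol, 1801 several and 11777 were not listed; symbols were updated through RefSeq gene identifiers (GRCh38.p14), which 41043 matched. For HOX genes, 3 probe sets with several symbols were left out. The deposited intensities were used without further scaling. Keeping the brightest probe set of each gene (mean of both log2 signals) gave 19775 genes. The background level and the 1.5-fold threshold, which is the authors', are described with the results. With 1 array per cell line no p-value was computed, and the number of arrays limits precision. The order of genes in a cluster follows their 3′ ends in RefSeq.

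The HOX genes and the related lists were chosen with earlier results of these data known. All HOX genes with a probe set were accounted for, and from each related list up to 4 genes above background with the largest fold were named. DHRS3, LNPK and other genes beyond that rule were named to complete a count. The gene step was tested on simulated data in which the changed genes all lay well above background on both arrays. That test does not cover calls near the background level. Alternatives were equal array medians, quantile normalization, another way to pick or average probe sets, other background levels, the measured ratio, a filter to genes above background on both arrays and a 2-fold threshold. Python 3.11.15, numpy 2.4.6, pandas 2.3.3 and matplotlib 3.10.9 were used.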

Additional observations from a re-analysis of the deposited data

How the results depend on the processing

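HOXD8 was lower past the threshold under all 10 alternatives, and HOXD1 under 5. Most of the 10 left the fold of HOXD8 unchanged, because its 1 probe set was above background on both arrays. The count of lower HOX genes was 1 (HOXD8) with the 99th percentile as background, with genes above background on both arrays only and with a 2-fold threshold, and 8 by the measured ratio over all 28 genes, where 2 were higher, HOXA2 and HOXC8, both below background. With equal array medians, which moved log2 folds up by 0.14, 1 HOX gene was higher (HOXB3), and over all genes 880 were lower and 1475 higher in place of 1328 and 950. Taking the probe set that differed most between arrays, 1 HOX gene was higher (HOXD10). HOXD4 replaced HOXD1 as the second lower gene with the mean over all probe sets and with probe sets without a suffix letter, where 12 HOX genes were above background on HCC4006. Alternatives for the related lists were chosen after seeing the data. Retinoic acid genes lower past the threshold were 2 with equal array medians, 2 with the mean over probe sets, 2 with the most different probe set, 2 without suffix letters and 0 at 2-fold; Polycomb genes higher were 0, 1, 1 and 0 in the order of the last 4. Of 143 recomputed log2 folds of single HOX genes, 135 moved by less than 0.27, 8 moved by more and 0 of the called ones reversed. Many of the 135 could not move, such as those of genes with 1 probe set under another choice of probe set. Reversal was scored only for HOXD1 and HOXD8. Small folds could change sign, as HOXB6 did with the mean over probe sets (0.23 to -0.03). Genes without a fold under a setting were not counted, so these counts do not measure stability. With 1 array per cell line no replicate could be left out. No paired analysis was possible because the result comes from no test and each group has 1 array. Signals near the background level limit HOXB8, HOXC4, HOXC9, HOXD1, HOXD4 and HOXD9.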
